A study of Homo sapiens with 60 samples.

Results

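From a study of lead (Pb) in differentiating SH-SY5Y cells, 6 of the 60 RNA libraries are described here: the 3 dishes collected at day 9 of neuronal differentiation without Pb and the 3 dishes collected at day 6 without Pb. They were chosen by their labels, as the earliest pair of collection days in the time course, and compared across 15263 of the 37334 genes in the table. SH-SY5Y is an established line of human neuroblastoma cells, labelled wild type, and 1 dish of passage 39 cells was used per replicate. In the whole study, cells received 0, 0.16, 1.26 or 10 µM Pb starting at day 5, and 3 dishes of each dose were collected at days 6, 9, 12, 15 and 18, which gave 20 groups. The day 9 group at 0 µM and the day 6 group at 0 µM had no Pb at any time, and the 18 dishes of days 9 and 6 that had Pb are used below as other dishes in which the same interval of days was measured. Dish numbers are those of the labels. Gene levels are in CPM, the reads of a gene per 1e+06 reads assigned to genes in that library, which does not correct for gene length, so levels are compared between dishes and not between genes.

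SH-SY5Y cells come from the sympathetic nerve lineage, and many of them carry the enzymes, transporters and transcription factors of noradrenaline-producing neurons. Differentiation schedules for this line usually combine reduced serum with retinoic acid, a ligand of nuclear receptors that is known to slow division and promote outgrowth of neurites, followed by a neuronal medium with growth factors. The labels cite a published schedule but do not say which medium the dishes were in on each day, so the comparison gives what differed between day 9 and day 6 and not what the cells received in between.

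The day 9 libraries held 35.2, 30.9 and 16.6 M assigned reads (M for 1e+06), and the day 6 libraries held 22.0, 33.1 and 27.4 M. A count of 3 reads corresponded to between 0.0853 and 0.181 CPM in these 6 libraries. The 15 markers of neuroblast-like SH-SY5Y cells were all detected, with a summed level of 6733 to 7318 CPM at day 9 and 7912 to 8200 CPM at day 6. Markers of other cells were low: 10 Schwann and glial markers summed to at most 17.4 CPM in any of the 6 libraries, and 10 blood and immune markers to at most 0.12 CPM. The 10 epithelial markers summed to 24.4 to 36.2 CPM at day 9 and 24.0 to 28.1 CPM at day 6. The 12 markers of substrate-adherent and fibroblast-like cells summed to about 230 CPM in each day 9 dish, against 248 to 260 CPM in the day 6 dishes, and COL1A2, POSTN and PRRX1 among them had no read in any of the 6. In bulk RNA of this kind, fewer cells of a type and less RNA per cell cannot be told apart.

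Between day 9 and day 6 a small share of genes passed the test at 3 dishes a group, about equally in both directions. With limma on log2(CPM + 1) and Benjamini-Hochberg adjustment over all genes kept, 785 of 15263 genes (5.14%) had an adjusted p under 0.05, of which 402 (2.63%) rose and 383 (2.51%) fell. Of all genes kept, 7581 had a log2 change above 0 and 7672 below 0. These shares are the background for the list counts below. The changes were mostly small. The median size among the 785 genes was 0.443 on the log2 scale, and 26 rises and 11 falls reached a log2 change of 1. The replicates are dishes of 1 line at 1 passage, so the p-values measure only the spread between such dishes. Each SE and p-value rests on a spread per gene pooled over all 20 groups of day and dose. It is not the spread of the 6 dishes shown. Left-out dishes moved the total: 475 genes passed without day 6 dish 1, 506 without day 6 dish 2 and 481 without day 9 dish 2.

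The 12 genes of the largest rises, among those of at least 5 CPM with no overlap between dishes, were a mixture of regulators, surface receptors and secreted or signalling proteins. CELF2 (chromosome 10, 10462550 to 11336675), an RNA-binding protein that regulates splicing, had 12.8, 13.7 and 12.0 CPM in the day 9 dishes, against 3.78, 3.87 and 4.01 CPM in the day 6 dishes (log2 change 1.50 ± 0.18, SE; adjusted p = 4.25e-08). KIT (chromosome 4, 54657957 to 54740715), the receptor tyrosine kinase for stem cell factor, had 10.5, 10.2 and 8.43 CPM at day 9 and 2.87, 2.60 and 3.50 CPM at day 6 (1.42 ± 0.26). In both genes every day 9 dish stood at more than 8 CPM and every day 6 dish at about 4 CPM or less. CYP24A1 (chromosome 20, 54143538 to 54173986), the mitochondrial hydroxylase that inactivates vitamin D, had 9.63, 10.1 and 8.49 CPM at day 9, against 3.42, 3.48 and 2.74 CPM at day 6 (1.31 ± 0.14; adjusted p = 1.45e-09). CLSTN2 (chromosome 3, 139935185 to 140577397), a calsyntenin of the postsynaptic membrane, had 141, 144 and 160 CPM at day 9, against 63.9, 66.0 and 74.8 CPM at day 6 (1.11 ± 0.15). The 3 day 9 dishes were again close together and well apart from the day 6 dishes.

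Further leading rises belong to inflammatory, adhesion or stress responses. ICAM1, an adhesion receptor for leukocytes, had 6.48, 6.61 and 8.61 CPM at day 9 and 2.64, 2.90 and 2.48 CPM at day 6 (log2 change 1.16 ± 0.17). IL32, a cytokine gene, had 6.37, 5.96 and 6.14 CPM at day 9 and 1.46, 2.75 and 1.90 CPM at day 6 (1.26 ± 0.18). CD44, the receptor for hyaluronan, had 11.8, 9.72 and 9.27 CPM at day 9, against day 6 levels of no more than 4.51 CPM (1.13 ± 0.17). DRAM1, a lysosomal membrane protein that p53 can induce and that takes part in autophagy, averaged 18.4 ± 3.55 CPM at day 9 and 6.62 ± 0.548 CPM at day 6 (SD, n = 3 each; 1.33 ± 0.18), and its highest day 9 dish was dish 3 with 22.4 CPM. GDF15, a circulating stress-induced factor, had 225, 194 and 199 CPM at day 9, against 91.3, 90.2 and 88.2 CPM at day 6. The other 3 of these 12 rises were COLCA1, a locus named for its association with colorectal cancer (log2 change 1.35 ± 0.12), DGKK, a diacylglycerol kinase (1.25 ± 0.18), and NIBAN1, a stress-responsive protein (1.13 ± 0.18). POU2AF3, which overlaps COLCA1 in the annotation, averaged 10.6 CPM at day 9 and 10.4 CPM at day 6 (log2 change 0.03 and adjusted p = 0.955).

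Among the largest falls were genes of the extracellular matrix and of receptor signalling. ADAMTS2 (chromosome 5, 179110853 to 179345461), the protease that trims procollagens at their amino end, had 3.01, 4.70 and 7.64 CPM at day 9, against 15.4, 18.3 and 16.0 CPM at day 6 (log2 change −1.59 ± 0.22; adjusted p = 9.77e-07). The day 9 dishes spread more than 2-fold among themselves, yet all stayed below every day 6 dish. SCUBE1 (chromosome 22, 43197280 to 43343372), a secreted and cell-surface protein with EGF-like domains, had 23.9, 16.2 and 26.4 CPM at day 9, against 61.8, 56.7 and 52.4 CPM at day 6 (−1.35 ± 0.12). LAMA4, a laminin chain of basement membranes, had 9.92, 10.8 and 8.73 CPM at day 9, against 23.1, 24.6 and 22.3 CPM at day 6 (−1.18 ± 0.17). SNAI1, a repressor known for driving epithelial cells to a mesenchymal state, had 8.21, 7.36 and 6.86 CPM at day 9, against 14.8, 17.5 and 16.6 CPM at day 6 (−1.03 ± 0.15). No day 9 dish reached the lowest day 6 dish in these genes, as the rule for naming the 24 required; over all genes kept, the dishes of day 9 and day 6 did not overlap for 22.9%.

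Genes of receptors and growth factors were also among the leading falls. INSRR, the insulin receptor-related receptor, had 7.42, 5.67 and 7.70 CPM at day 9, against 18.2, 17.6 and 13.0 CPM at day 6 (log2 change −1.12 ± 0.16). It overlaps another gene in the annotation, and since no strand setting is stated, its reads are uncertain. BAMBI, a decoy receptor that blocks TGF-beta family signals, had 6.82, 6.81 and 9.09 CPM at day 9 and 15.9, 16.8 and 18.6 CPM at day 6 (−1.09 ± 0.21). IGF2, the fetal growth factor, had 67.5, 97.2 and 89.4 CPM at day 9, against 138, 193 and 186 CPM at day 6 (−1.02 ± 0.24; adjusted p = 0.00543). Its antisense partner IGF2-AS averaged 1.07 CPM at day 9 and 1.99 CPM at day 6, and the 2 cannot be separated without strand. Further falls by the rule were RORB, an orphan nuclear receptor (−1.17 ± 0.20), HR, a corepressor of nuclear receptors (−1.16 ± 0.19), the noncoding LINC02735 (−1.15 ± 0.22) and CMKLR1, the chemerin receptor, with 2.76, 2.98 and 1.75 CPM at day 9 and 5.60, 5.72 and 6.38 CPM at day 6. IGF2 was the only one of the 24 whose call was lost when 1 dish was left out (adjusted p = 0.0543 without day 9 dish 1).

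**Figure D1:**
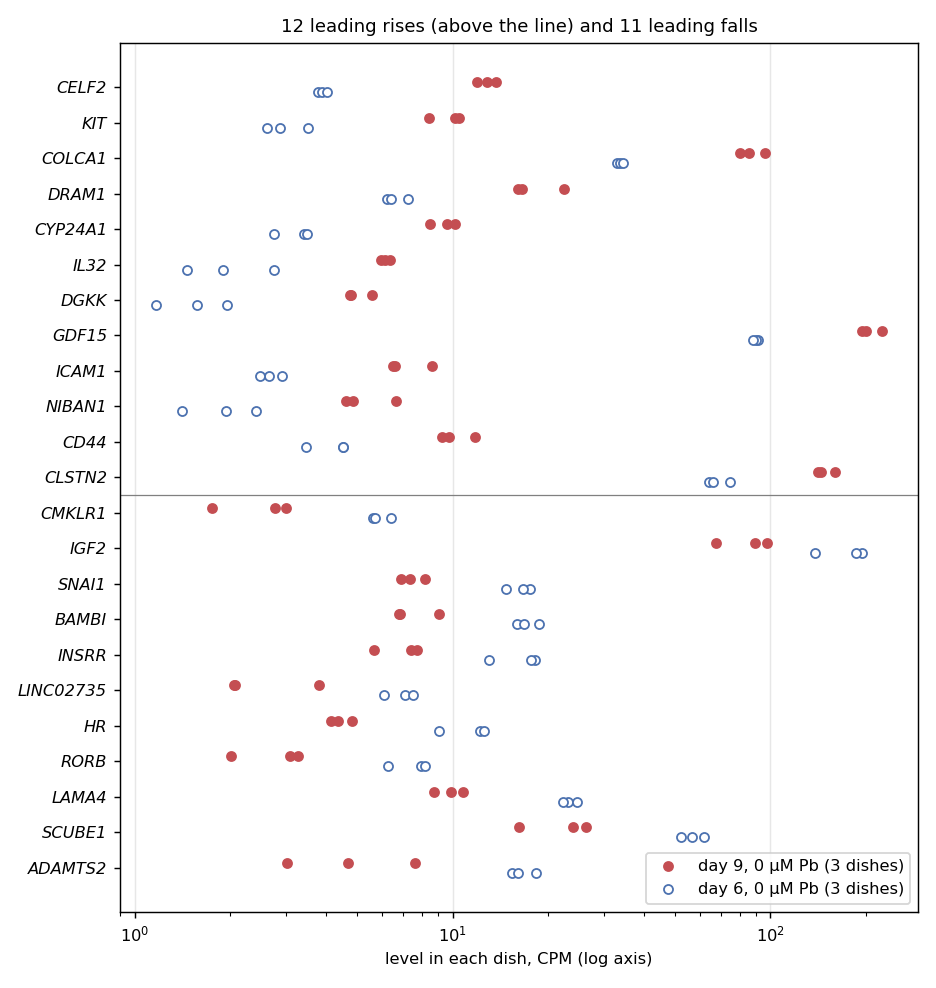
Level in each dish, in CPM on a log axis, of the 12 genes with the largest rises (above the line) and 11 of those with the largest falls (below it); filled points are the 3 dishes of day 9 and open points the 3 dishes of day 6, both without Pb. For every gene the filled points lie on 1 side of the open ones, for example SCUBE1 at 16.2 to 26.4 CPM at day 9 and 52.4 to 61.8 CPM at day 6.

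Several genes that make, store and take up catecholamines fell at day 9. Of 15 kept members, 5 fell and none rose (33.3% called, against 5.14% of all genes kept). The median log2 change was −0.25, against 0.00 for all genes kept. DBH, which converts dopamine to noradrenaline, had 454, 444 and 432 CPM at day 9, against 716, 676 and 713 CPM at day 6 (log2 change −0.66 ± 0.065; adjusted p = 2.11e-10). SLC18A1, the vesicular monoamine transporter VMAT1, had 29.4, 24.0 and 25.6 CPM at day 9, against 41.9, 44.3 and 39.7 CPM at day 6 (−0.65 ± 0.063). Both genes separated the days without overlap. DDC, which forms dopamine, had 36.1, 32.8 and 32.6 CPM at day 9, against 66.1, 69.7 and 68.3 CPM at day 6, and the noradrenaline transporter SLC6A2 had 71.3, 63.2 and 70.2 CPM at day 9, against 139, 128 and 134 CPM at day 6. CYB561, which supplies electrons for the DBH reaction in secretory granules, fell by 0.39 on the log2 scale (SE 0.051). TH, the first enzyme of the pathway, was barely detected, with 1.39, 0.616 and 0.782 CPM at day 9 and 0.865, 1.48 and 1.17 CPM at day 6, and did not pass (log2 change −0.18, adjusted p = 0.695).

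Most transcription factors that define the noradrenergic state lay below 0, and some lay above it. Of 15 kept members, 11 had a log2 change below 0, and the median was −0.16. By the test 4 fell and none rose (26.7% called, against 5.14% of all genes kept). With edgeR 3 fell, and with DESeq2 on only the groups compared 7 fell and 1 rose. TBX3, a T-box repressor, had 377, 342 and 376 CPM at day 9, against 546, 587 and 532 CPM at day 6 (−0.60 ± 0.11; adjusted p = 0.000369). KLF7, a zinc finger factor of axon growth, fell by 0.37 (SE 0.066), and SOX11 by 0.27 (SE 0.064). HAND2, a factor of sympathetic neuron development, had 350, 343 and 346 CPM at day 9 and 329, 323 and 341 CPM at day 6. It did not pass the threshold (adjusted p = 0.70). PHOX2A ranged from 848 to 1493 CPM between the day 9 dishes alone, and from 1254 to 1461 CPM at day 6.

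Neurofilament genes fell, while vimentin, another filament protein, rose. NEFM had 173, 160 and 164 CPM at day 9, against 308, 310 and 294 CPM at day 6 (log2 change −0.87 ± 0.048). NEFL had 265, 244 and 238 CPM at day 9, against 396, 383 and 373 CPM at day 6. VIM, the filament of mesenchymal and immature neural cells, had 66.3, 58.9 and 67.3 CPM at day 9, against 49.9, 52.9 and 48.4 CPM at day 6 (0.34 ± 0.093; adjusted p = 0.0188), and kept its call in 2 of the 6 fits that left out 1 dish. These were the 3 of 8 filament genes that passed (37.5%, against 5.14% of all genes kept), and the median over the 8 was 0.05. Of 24 microtubule and growth cone genes, 3 fell and 1 rose (16.7% called, against 5.14% of all genes kept), with a median of −0.09. GAP43, a growth cone protein, had 108, 102 and 100 CPM at day 9 and 127, 126 and 123 CPM at day 6 (−0.27 ± 0.048). The neuronal tubulin TUBB3 had 6.74, 8.43 and 8.30 CPM at day 9, against 12.7, 11.2 and 12.1 CPM at day 6 (−0.56 ± 0.12). Of the stathmins, which regulate microtubule assembly, STMN4 rose by 0.29 (SE 0.063) and STMN3 fell by 0.27 (SE 0.065), the second with no call without day 6 dish 1 or day 9 dish 2.

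Some genes of neuropeptides and transmitter release passed. NPY, neuropeptide Y, had 11.9, 13.0 and 15.2 CPM at day 9, against 24.2, 23.8 and 24.2 CPM at day 6 (log2 change −0.81 ± 0.092; adjusted p = 9.39e-09). CHGA, a core protein of dense granules, had 710, 780 and 725 CPM at day 9, against 1092, 1178 and 1226 CPM at day 6 (−0.66 ± 0.16). The related granin CHGB went the other way, with 620, 664 and 630 CPM at day 9 and 587, 521 and 570 CPM at day 6 (0.19 ± 0.058; adjusted p = 0.038), although this call held in 2 of the 6 fits without 1 dish. The other 14 of 17 granin and neuropeptide genes did not pass (17.6% called, against 5.14% of all genes kept), and the list's median was 0.00. Of 22 synaptic vesicle genes, 9.09% were called, against 5.14% of all genes kept. SYT11 rose by 0.19 (SE 0.041) and SYT1 fell by 0.19 (SE 0.049), and the call of SYT1 was lost without day 6 dish 1 or 2 or day 9 dish 3. Of 12 cholinergic genes, ACHE, acetylcholinesterase, had 185, 158 and 178 CPM at day 9, against 112, 97.6 and 91.2 CPM at day 6 (0.79 ± 0.066; adjusted p = 1.98e-12), and the nicotinic receptor subunit CHRNA7 fell by 0.37 (SE 0.068).

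Retinoic acid genes split evenly, with 4 rises and 4 falls among 19 kept members and a median of −0.05. In this list 42.1% were called, against 5.14% of all genes kept. STRA6, the cell-surface receptor that takes up retinol, had 115, 98.6 and 110 CPM at day 9, against 205, 195 and 171 CPM at day 6 (log2 change −0.81 ± 0.067; adjusted p = 1.93e-12). CYP26A1, which degrades retinoic acid and is one of its direct targets, had 1448, 1315 and 1287 CPM at day 9, against 1570, 1543 and 1526 CPM at day 6 (−0.20 ± 0.055). DHRS3, which reduces retinal back to retinol, had 2154, 2050 and 2051 CPM at day 9 and 1820, 1860 and 1883 CPM at day 6 (0.17 ± 0.048). The receptor gene RARB, also a direct target, had 277, 267 and 248 CPM at day 9 and 235, 230 and 227 CPM at day 6 (0.19 ± 0.059; adjusted p = 0.0399). Thus the changes of CYP26A1, DHRS3 and RARB were small, and each of these calls was lost in at least 4 of the 6 fits that left out 1 dish. TGM2, a transglutaminase, rose by 0.28 (SE 0.060), and its call and that of STRA6 held in all 6. The list's 8 calls became 3 without day 6 dish 1, 4 without day 6 dish 2, 3 without day 9 dish 2 and 5 without day 9 dish 3.

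Several targets of BMP signalling fell. The BMP pathway raises the ID genes, whose products block the DNA binding of factors that promote differentiation. ID2 had 65.2, 53.6 and 58.8 CPM at day 9, against 93.9, 98.8 and 101 CPM at day 6 (log2 change −0.72 ± 0.090), ID1 had 69.1, 53.7 and 66.5 CPM at day 9 and 84.2, 103 and 106 CPM at day 6 (−0.63 ± 0.099), and ID3 had 203, 172 and 198 CPM at day 9 and 258, 287 and 271 CPM at day 6 (−0.51 ± 0.088). The inhibitory SMAD6 had 1.93, 2.01 and 1.87 CPM at day 9, against 3.78, 5.78 and 4.67 CPM at day 6 (−0.95 ± 0.21). With BAMBI these were the 5 falls among 23 kept members of the BMP, ID and TGF-beta list, whose median was −0.04. In this list 30.4% were called, against 5.14% of all genes kept. Of the 2 rises, CHRD, the BMP antagonist chordin, had 2.73, 3.37 and 3.37 CPM at day 9 and 2.37, 1.60 and 0.729 CPM at day 6 (0.74 ± 0.14). All 7 calls held in each of the 6 fits without 1 dish. Of 19 Notch and proneural genes, the Notch target HEY1 had 29.5, 28.3 and 27.2 CPM at day 9, against 53.0, 45.0 and 48.7 CPM at day 6 (−0.76 ± 0.085). Of 15 Wnt genes, the secreted inhibitor DKK1 fell by 0.29 (SE 0.049).

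Among 17 growth factor receptor genes, IGF1R rose beside KIT. IGF1R, the receptor for insulin-like growth factors, had 45.6, 45.1 and 45.6 CPM at day 9, against 32.7, 30.7 and 36.7 CPM at day 6 (log2 change 0.44 ± 0.097; adjusted p = 0.00241). RET, the GDNF family receptor, had 2599, 2280 and 2300 CPM at day 9 and 3022, 2848 and 2744 CPM at day 6. Although the dishes did not overlap, RET did not pass (−0.26 ± 0.12; adjusted p = 0.257). NTRK2, the BDNF receptor TrkB, had 480, 455 and 444 CPM at day 9 and 405, 390 and 409 CPM at day 6, also without passing (0.20, adjusted p = 0.163). Of 29 axon guidance and adhesion genes, 4 rose and 3 fell (24.1% called, against 5.14% of all genes kept). The cadherin CDH11 had 24.6, 23.5 and 18.9 CPM at day 9, against 45.8, 47.2 and 38.0 CPM at day 6 (−0.94 ± 0.11), and the semaphorin coreceptor PLXNA4 had 113, 96.5 and 100 CPM at day 9, against 70.8, 65.4 and 83.1 CPM at day 6 (0.50 ± 0.083). Among the Slit ligands, SLIT2 rose by 0.51 (SE 0.090) and SLIT3 fell by 0.32 (SE 0.080); the second was not called without day 6 dish 1 or day 9 dish 2. Without day 6 dish 1 this list had 4 calls in place of 7.

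Several members of the AP-1 transcription factor family rose, and JUNB fell. In the list of 25 genes of immediate early and cAMP responses, 7 rose, 1 fell and the median was 0.09. The share called was 32%, against 5.14% of all genes kept. JUN had 237, 229 and 230 CPM at day 9, against 160, 155 and 155 CPM at day 6 (log2 change 0.57 ± 0.15; adjusted p = 0.0155). FOSL1 had 3.84, 3.37 and 5.06 CPM at day 9, against 1.46, 2.39 and 1.42 CPM at day 6 (0.89 ± 0.19), and FOSL2 had 14.3, 13.3 and 16.9 CPM at day 9, against 9.06, 8.59 and 9.01 CPM at day 6 (0.67 ± 0.16). JUNB had 121, 126 and 119 CPM at day 9, against 151, 143 and 141 CPM at day 6 (−0.25 ± 0.055). The most rapidly induced members did not pass: FOS had 13.8, 13.4 and 10.4 CPM at day 9 and 15.6, 15.5 and 12.6 CPM at day 6, and EGR1 had 81.9, 92.3 and 89.2 CPM at day 9 and 92.9, 109 and 102 CPM at day 6. KLF6, a zinc finger factor, rose by 0.36 (SE 0.081). The list's 8 calls became 4 without day 6 dish 2 and 5 without day 9 dish 2 or 3; the call of JUN was lost without day 6 dish 2 or day 9 dish 1, and that of FOSL2 without day 9 dish 3. Of 18 genes that feed back on MAP kinase signalling, 22.2% were called, against 5.14% of all genes kept. The phosphatase DUSP2 fell (0.654, 0.519 and 0.481 CPM at day 9, against 1.09, 2.24 and 2.37 CPM at day 6). PHLDA1, DUSP4 and CCND1 rose. PHLDA1 was not called without day 9 dish 3, and DUSP4 held its call in 2 of the 6 fits.

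Among genes of a mesenchymal or matrix-producing state, more rose than fell. Of 29 kept members, 8 rose and 2 fell (34.5% called, against 5.14% of all genes kept), with a median log2 change of 0.16. ANXA2, a calcium-dependent membrane-binding protein, had 90.4, 87.3 and 93.0 CPM at day 9, against 48.8, 51.1 and 48.9 CPM at day 6 (0.85 ± 0.10; adjusted p = 3.13e-08). Its relative ANXA1 was near the detection floor at day 6, with 0.909, 0.616 and 1.20 CPM at day 9, against 0.0455, 0.514 and 0.0365 CPM at day 6 (0.68 ± 0.14). CCN1, a matrix-associated target of the YAP pathway, had 11.7, 12.3 and 10.5 CPM at day 9, against 3.92, 8.11 and 7.55 CPM at day 6 (0.78 ± 0.21). COL3A1, a fibrillar collagen, had 39.6, 45.1 and 39.3 CPM at day 9 and 24.2, 25.1 and 26.1 CPM at day 6 but did not pass (0.69 ± 0.23; adjusted p = 0.0622). The proteoglycan LUM fell by 0.50 (SE 0.12) and the surface glycoprotein THY1 by 0.23 (SE 0.068). SNAI1, given above, also fell but is not a member of this list. Of the 6 fits without 1 dish, CCN1 held its call in 3, LUM in 4 and THY1 in 2. The list had 5 calls without day 6 dish 1 or day 9 dish 1. The fibroblast marker sum was not higher at day 9, as given above, although COL3A1, 1 of its markers, was higher in every day 9 dish. The part of other cells in these rises was not tested.

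Inflammatory and antigen presentation genes were among the groups with the highest medians. Of 14 NF-kB targets and chemokines, 3 rose and none fell (21.4% called, against 5.14% of all genes kept), with a median of 0.25. The chemokine CXCL8 had 3.69, 2.37 and 3.31 CPM at day 9, against 0.82, 0.605 and 0.328 CPM at day 6 (log2 change 1.38 ± 0.17; adjusted p = 8.16e-08). CCL2 had 21.2, 23.2 and 20.5 CPM at day 9, against 10.4, 12.3 and 11.8 CPM at day 6 (0.86 ± 0.18). With ICAM1 these were the 3 rises, and no dish overlapped. Of 20 interferon response genes, 5 rose and none fell (25% called, against 5.14% of all genes kept), with a median of 0.18. All 5 act in presentation of peptides by MHC class I. PSMB8, an immunoproteasome subunit, had 4.32, 4.41 and 5.96 CPM at day 9, against 2.50, 1.78 and 2.70 CPM at day 6 (0.82 ± 0.19). TAP1, which pumps peptides into the endoplasmic reticulum, had 4.18, 3.14 and 4.33 CPM at day 9, against 2.32, 3.06 and 0.948 CPM at day 6 (0.71 ± 0.18), and B2M, the light chain of class I molecules, had 128, 140 and 133 CPM at day 9, against 115, 111 and 112 CPM at day 6 (0.25 ± 0.065). HLA-B and HLA-C rose too, although reads of these near-identical genes may be split uncertainly. Without day 6 dish 2 or day 9 dish 3, 3 of the 5 were called, and PSMB8, TAP1 and B2M each held their calls in 4 of the 6 fits without 1 dish.

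The promoters of the interferon group were read for the core of the interferon-stimulated response element, a motif bound by interferon regulatory factors, because 2 of the risen genes hold it. The window was the 250 bases upstream of the gene start in RefSeq on GRCh38.p14, and the motif was GAAANNGAAA or TTTCNNTTTC, which are the 2 strands of 1 sequence. Of 15 list promoters, 9 (60%) held it, against 259 of 11976 promoters of kept genes (2.16%). The list is made of known interferon response genes, so this share was not a test of the rises at day 9. IFIT1, IFIT3, IFI6, IFI27, ISG15, OAS3 and IFITM3 held the motif and were not among the 5 rises. Of the 5 risen genes, B2M (chr15:44711267-44711516, plus strand) and TAP1 (chr6:32853705-32853954, minus strand) held it, each as 2 overlapping matches that are in capitals below. A match is a run of letters and was not tested as a binding site.
B2M: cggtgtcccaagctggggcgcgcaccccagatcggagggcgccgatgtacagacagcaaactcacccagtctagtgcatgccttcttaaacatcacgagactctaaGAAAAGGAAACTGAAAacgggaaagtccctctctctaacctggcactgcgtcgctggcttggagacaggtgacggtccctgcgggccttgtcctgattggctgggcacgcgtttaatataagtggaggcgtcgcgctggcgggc
TAP1: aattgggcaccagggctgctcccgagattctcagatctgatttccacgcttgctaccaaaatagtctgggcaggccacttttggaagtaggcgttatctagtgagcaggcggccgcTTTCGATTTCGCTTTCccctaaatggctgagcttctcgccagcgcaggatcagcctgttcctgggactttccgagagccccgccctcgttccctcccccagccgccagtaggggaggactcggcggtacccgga

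Some cytosolic chaperones rose by small amounts. Of 19 kept heat shock genes, 7 rose and none fell (36.8% called, against 5.14% of all genes kept). The median was 0.10, and 15 of the 19 had a log2 change above 0. HSPB1, a small chaperone, had 345, 365 and 345 CPM at day 9, against 260, 260 and 277 CPM at day 6. AHSA1, which activates the ATPase of HSP90, had 195, 211 and 209 CPM at day 9, against 170, 170 and 174 CPM at day 6 (0.25 ± 0.050). HSPH1, a nucleotide exchange factor for HSP70, rose by 0.23 (SE 0.046) and FKBP4, an HSP90 cochaperone, by 0.27 (SE 0.056). HSPA8, the constitutive HSP70, had 2955, 3013 and 2823 CPM at day 9, against 2650, 2593 and 2602 CPM at day 6 (0.16 ± 0.041). The classical inducible member HSPA1A had 10.1, 9.40 and 9.39 CPM at day 9 and 10.4, 10.9 and 8.83 CPM at day 6 and did not pass (adjusted p = 0.892). Without day 9 dish 2 the count was 4, HSPA8 being among the calls lost, and the calls of HSPE1 and STIP1, the remaining 2, held in 2 and 1 of the 6 fits without 1 dish. HSPE1 has many processed copies in the genome, and its reads are uncertain.

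The heat shock element core, the motif of heat shock factors, was searched in the same 250-base windows as GAANNTTC or TTCNNGAA, each of which reads the same on both strands. It was present in 7 of 18 list promoters (38.9%), against 1028 of 11976 promoters of kept genes (8.58%). The list is made of known heat shock genes, so the share that held the motif was not a test of the rises at day 9. Of the 6 risen genes with a promoter sequence, HSPA8 (chr11:123062137-123062386, minus strand) and HSPB1 (chr7:76302423-76302672, plus strand) held it. HSPA8 had 4 matches in 2 overlapping pairs and HSPB1 had 1, all in capitals in the RefSeq sequences below. HSPA1A also held the motif, and its level did not pass the threshold. HSPA1B, DNAJA1, HSPB8 and CHORDC1 held it and were not among the rises either.
HSPA8: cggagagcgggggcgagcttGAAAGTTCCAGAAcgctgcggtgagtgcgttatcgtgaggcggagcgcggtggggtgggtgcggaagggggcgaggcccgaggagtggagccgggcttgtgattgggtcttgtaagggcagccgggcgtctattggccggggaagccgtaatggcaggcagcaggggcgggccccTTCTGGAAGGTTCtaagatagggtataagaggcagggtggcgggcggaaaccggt
HSPB1: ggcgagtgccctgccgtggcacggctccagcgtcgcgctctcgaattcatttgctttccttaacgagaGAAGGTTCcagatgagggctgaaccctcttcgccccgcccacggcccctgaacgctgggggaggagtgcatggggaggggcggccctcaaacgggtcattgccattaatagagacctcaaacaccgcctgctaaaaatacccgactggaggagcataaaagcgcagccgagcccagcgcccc

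Most p53 targets lay above 0, and 20% of them passed, against 5.14% of all genes kept. Of 25 kept members, 4 rose and 1 fell, 20 had a log2 change above 0, and the median was 0.19. Beside GDF15, the cyclin-dependent kinase inhibitor CDKN1A had 154, 130 and 136 CPM at day 9, against 94.8, 89.7 and 82.1 CPM at day 6 (log2 change 0.64 ± 0.080). EDA2R, a receptor of the tumour necrosis factor family, had 22.5, 21 and 23.8 CPM at day 9 and 17.7, 19.1 and 14.1 CPM at day 6 (0.39 ± 0.12), and BAX, an effector of apoptosis, had 110, 119 and 116 CPM at day 9 and 93.6, 100 and 100 CPM at day 6 (0.23 ± 0.071). The calls of EDA2R and BAX each held in 1 of the 6 fits without 1 dish, and that of the fallen TP53I3 in 2. MDM2, the ubiquitin ligase of p53, did not pass, with 59.7, 48.2 and 59.0 CPM at day 9 and 59.7, 55.0 and 54.3 CPM at day 6. The count of 5 calls was 2 without day 6 dish 1, without day 9 dish 2 or without day 9 dish 3, and 3 without day 6 dish 2 or 3.

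Most cell cycle genes lay slightly below 0, and 3 passed. Of 35 kept members, 32 had a log2 change below 0, against 7672 of the 15263 genes kept, and the median was −0.10. By the test 2 fell and 1 rose (8.57% called, against 5.14% of all genes kept). RRM2, which makes deoxynucleotides for replication, had 171, 167 and 167 CPM at day 9, against 200, 209 and 213 CPM at day 6 (−0.30 ± 0.062; adjusted p = 0.00135). The proliferation marker MKI67 had 199, 183 and 195 CPM at day 9 and 210, 188 and 205 CPM at day 6, with overlapping dishes (adjusted p = 0.781). CCND1, cyclin D1, was the rise, with 1722, 1606 and 1646 CPM at day 9, against 1442, 1461 and 1426 CPM at day 6 (0.20 ± 0.045). Of 7 kinase inhibitor genes, CDKN1B rose with CDKN1A (28.6% called, against 5.14% of all genes kept). CDKN1B had 334, 308 and 305 CPM at day 9, against 290, 273 and 266 CPM at day 6 (0.19 ± 0.054). The count of 2 was 1 without day 6 dish 2 or 3 or day 9 dish 1.

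Genes of glycolysis fell or stayed short of the threshold. Of 31 kept hypoxia and glycolysis genes, 7 fell and 1 rose (25.8% called, against 5.14% of all genes kept). A log2 change below 0 was found in 26, and the median was −0.12. HK2, a hexokinase, had 8.78, 8.65 and 8.43 CPM at day 9, against 15.3, 15.8 and 14.3 CPM at day 6 (−0.74 ± 0.17). ALDOC, the brain aldolase, had 14, 13.8 and 14.8 CPM at day 9, against 22.7, 21.5 and 26.1 CPM at day 6 (−0.68 ± 0.087; adjusted p = 1.89e-07). LDHA had 218, 223 and 210 CPM at day 9, against 261, 257 and 258 CPM at day 6. PKM, GPI, PFKP and PGK1 fell by 0.14 to 0.20 on the log2 scale, and each of these 4 calls was lost in at least 2 of the 6 fits without 1 dish. VEGFA, a target of hypoxia-inducible factors outside glycolysis, did not pass (7.59, 6.48 and 6.50 CPM at day 9 and 8.93, 7.83 and 5.98 CPM at day 6), and NDRG1, another, rose by 0.42 (SE 0.11), with its call lost without day 6 dish 1. The list had 3 calls without day 6 dish 1 and 5 without day 9 dish 2.

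Some genes of the integrated stress response (14.8% of the list) and of oxidative stress (17.4%) rose, against 2.63% of all genes kept. ATF4, the transcription factor of the amino acid response, had 126, 120 and 135 CPM at day 9, against 88.7, 97.1 and 94.9 CPM at day 6 (log2 change 0.44 ± 0.074), and its target DDIT3 had 26.2, 26.7 and 26.3 CPM at day 9, against 16.8, 17.7 and 18.8 CPM at day 6 (0.55 ± 0.10). They were 2 of 4 rises among 27 list members, whose median was 0.10, and the count was 2 without day 6 dish 2 or 3. SQSTM1, an autophagy receptor and NRF2 target, had 299, 274 and 277 CPM at day 9, against 212, 218 and 198 CPM at day 6 (0.44 ± 0.064; adjusted p = 3.62e-06). It was 1 of 4 rises among 23 NRF2 targets (2 without day 6 dish 2 or day 9 dish 1), with both ferritin chains, FTL (0.30 ± 0.068) and FTH1 (0.26 ± 0.076), whose many processed copies make their reads uncertain, and with SLC7A11, which the ATF4 list shares. The calls of FTH1 and SLC7A11 each held in 1 of the 6 fits without 1 dish. With median-ratio rescaling 2 of the NRF2 targets rose and 1 fell, as with GC and length correction. With edgeR 4 of them rose and 1 fell. Of 31 lipid genes 2 rose (6.45%, against 2.63% of all genes kept), among them FDFT1, which makes squalene for cholesterol synthesis, with 139, 140 and 136 CPM at day 9, against 118, 122 and 116 CPM at day 6 (0.22 ± 0.049). Of 20 endoplasmic reticulum chaperone and unfolded protein response genes, HSP90B1 and CALR rose by less than 0.20, with 1 call left whichever dish was omitted, and HSPA5 had 331, 325 and 319 CPM at day 9 and 312, 304 and 300 CPM at day 6 (adjusted p = 0.34). None of 9 metallothionein and zinc transport genes passed with limma, edgeR or DESeq2 (0 at an unadjusted p under 0.05 with limma), MT2A having 9.18, 7.97 and 11.7 CPM at day 9 and 8.01, 7.62 and 8.02 CPM at day 6.

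Ribosomal protein genes were slightly higher at day 9 almost throughout, nearly all without passing. Of 32 kept members, 31 had a log2 change above 0 and the median was 0.16, but RPS9 alone was called (0.24 ± 0.072; adjusted p = 0.044), with 1078, 1175 and 1087 CPM at day 9 and 877, 932 and 1032 CPM at day 6. The count was 5 without day 6 dish 3 and 0 without day 6 dish 1 or 2 or day 9 dish 2 or 3. In the dishes with Pb the median of these genes was 0.00. Levels also varied with transcript length by library: per log10 of length, relative to the mean of these libraries, log2 levels moved by 0.03, −0.12 and −0.04 in the day 9 dishes and by 0.11, 0.05 and −0.03 in the day 6 dishes, and the part of length in the ribosomal protein shift was not tested beyond the corrected fit, where the median was 0.14. Of 13 mitochondrially encoded transcripts, 4 fell (30.8% called, against 5.14% of all genes kept). ND5 fell by 0.33 (SE 0.074) and CYTB by 0.36 (SE 0.082). The count of falls was 0 without day 6 dish 2 and 2 without day 9 dish 1. Nuclear copies of these transcripts make their reads uncertain. None of 24 ribosome biogenesis genes passed with limma, edgeR or DESeq2, and 1 had an unadjusted p under 0.05 with limma, as did 2554 of all genes kept.

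**Figure D2:**
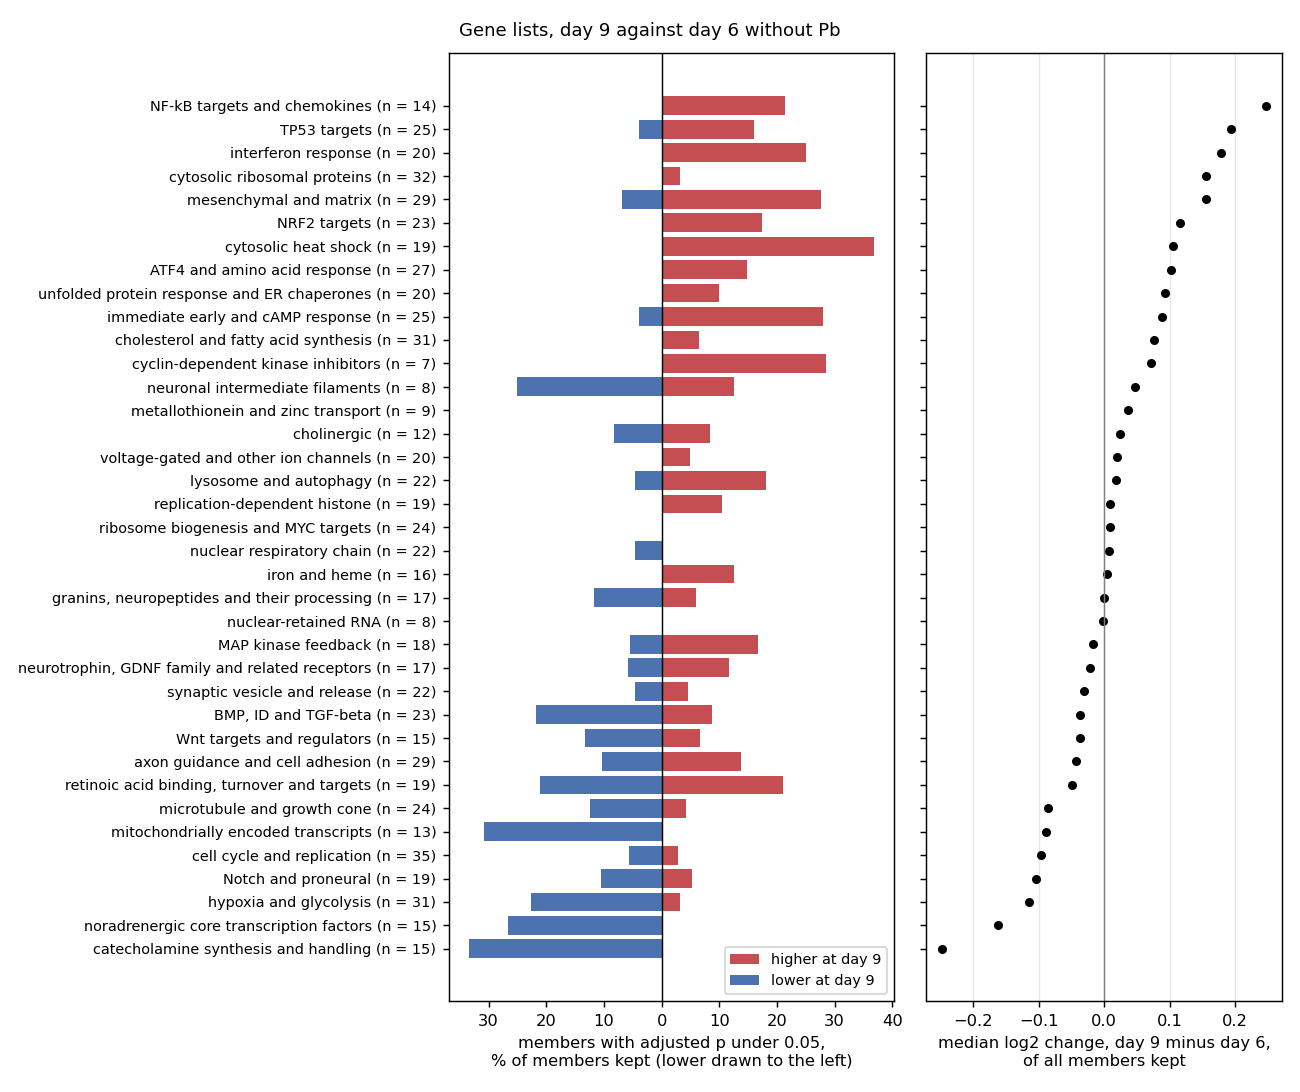
For each gene list, the percent of kept members past an adjusted p of 0.05 that rose (right) or fell (left) at day 9 relative to day 6 without Pb, and the median log2 change of all kept members (right panel, n in brackets). Catecholamine genes have the lowest median, −0.25, and NF-kB targets the highest, 0.25, and heat shock genes have the largest share of rises, 7 of 19.

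Several of the strongest rises were not found at later days. These levels are a description, since the day 9 and day 6 dishes are those of the comparison, and the library names of day 18 in the labels have another prefix than those of the other days. CELF2 averaged 3.89, 12.8, 0.349, 0.664 and 1.60 CPM at days 6, 9, 12, 15 and 18 without Pb. CYP24A1 averaged 3.21, 9.42, 0.137 and 0.032 CPM at days 6, 9, 12 and 15, and had no read in the 3 dishes of day 18. For both genes day 9 was the highest of the 5 days and day 12 was below day 6. KIT averaged 2.99, 9.70, 0.60, 0.971 and 3.31 CPM over the same days, CLSTN2 68.2, 148, 25.4, 43.7 and 58.5 CPM, and ICAM1 2.68, 7.23, 1.53, 0.487 and 0.651 CPM. GDF15 and CD44 instead were higher still at day 12, at 1188 and 21.6 CPM.

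Several falls were likewise followed by far higher levels. DDC averaged 68.0, 33.8, 140, 271 and 228 CPM at days 6, 9, 12, 15 and 18, and DBH 702, 444, 7453, 10655 and 7126 CPM. IGF2 averaged 172, 84.7, 1815, 2147 and 1186 CPM, and NPY 24.1, 13.4, 349, 1045 and 1141 CPM. In these 4 genes day 9 was the lowest of the 5 days. Other falls went on: ID3 averaged 272, 191, 41.5, 26.0 and 15.6 CPM, BAMBI 17.1, 7.57, 5.17, 3.04 and 0.887 CPM, and ADAMTS2 16.6, 5.12, 2.65, 1.99 and 1.63 CPM. The dishes with Pb entered the choice of the 785 genes only through the filter on low values and the shared estimate of spread. In these dishes, mean levels at day 12 lay below those of day 6 for 171 of the 402 rises (42.5%) and 206 of the 383 falls (53.8%). The share over all genes kept was 57.7%. Day 12 lay above day 9 for 165 of the rises (41.0%), 227 of the falls (59.3%) and 40.2% of all genes kept.

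**Figure D3:**
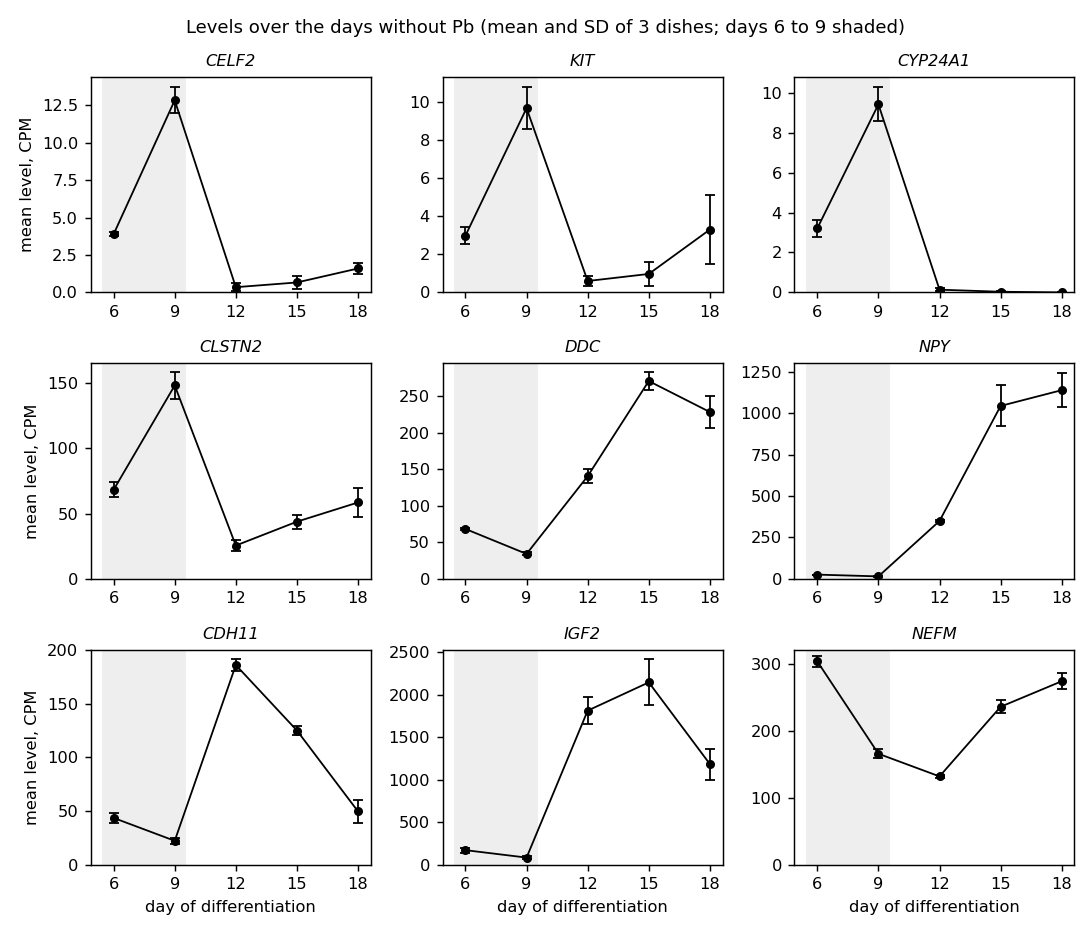
Mean level in CPM (points, with the SD of 3 dishes) at days 6, 9, 12, 15 and 18 without Pb for 9 genes, with days 6 and 9 shaded. CELF2, KIT, CYP24A1 and CLSTN2 peak at day 9, DDC, NPY, CDH11 and IGF2 dip at day 9 and are higher at day 12, and NEFM is lowest at day 12.

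The same interval was measured in 9 dishes at day 9 and 9 at day 6 that had received Pb and share no library with the comparison without Pb. Over the mean of the 3 doses, 2947 genes (19.3%) passed, 1683 higher (11%) and 1264 lower (8.28%). Rises made up 57.1% of these calls, but 47.9% after median-ratio rescaling, 51.0% with TMM scaling, 48.5% after GC and length correction and 47.5% with edgeR, so neither direction led under every scaling. Of the 785 genes called without Pb, 752 (95.8%) had the same sign in these dishes, against 65.9% of the genes not called. Both called and of the same sign were 314 of the 402 rises and 313 of the 383 falls. Both contrasts used the same filter and the same spread per gene from all 60 libraries, so passing in both is not independent. All 12 leading rises and 10 of the 11 leading falls plotted passed in the mean of the 3 Pb doses. CELF2 stood at 1.59 ± 0.10, KIT at 1.38 ± 0.15 and ADAMTS2 at −1.33 ± 0.13. Among the falls, IGF2 was the exception, at −0.32 ± 0.14 (adjusted p = 0.108). Passing in the mean did not require a rise at each dose. At 10 µM, CYP24A1 averaged 1.97 CPM at day 9 and 3.07 CPM at day 6. IL32 averaged 0.894 CPM at day 9 and 1.47 CPM at day 6 at that dose. In the catecholamine list 9 of 15 members fell in these dishes and none rose, with a median of −0.22, and ACHE rose by 0.90.

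**Figure D4:**
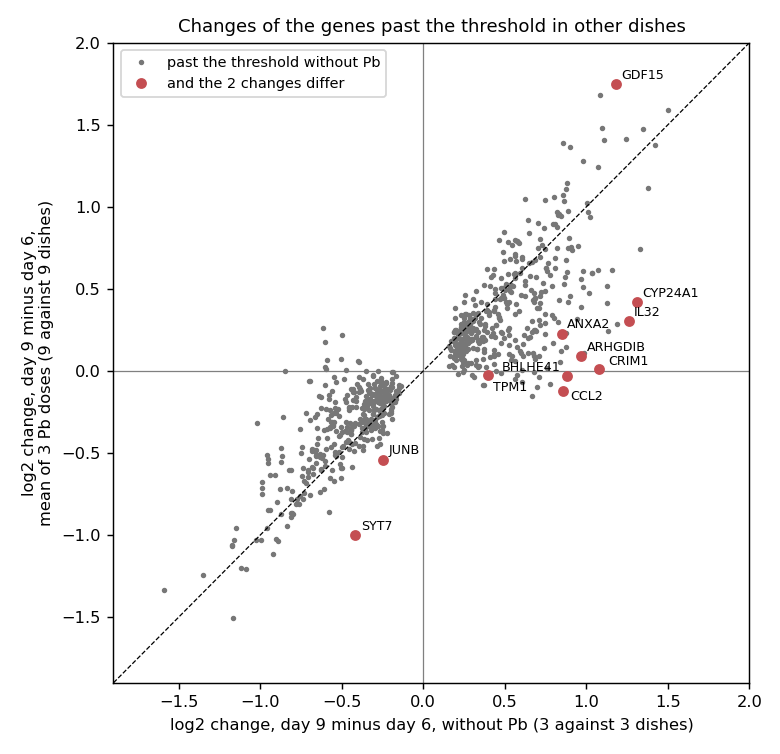
Log2 change between day 9 and day 6 of the 785 genes called without Pb, in the 0 µM dishes (x axis) and as the mean of 3 Pb doses in other dishes (y axis), with the line of equal change dashed; large points are genes whose 2 changes differ by the test. Most points lie in the quadrants of equal sign (752 of 785), and GDF15 lies above the line while CYP24A1, IL32, ANXA2 and CCL2 lie far below it.

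A direct test of whether the change depended on Pb called 13 genes of 15263 (0.0852%), 11 with a lower change with Pb (0.0721% of all genes) and 2 with a higher one (0.0131%). These 13 share the 0 µM dishes with the comparison above. Of the 13, 9 had risen without Pb. ANXA2 rose without Pb and at 0.16 µM, where it had 105, 102 and 104 CPM at day 9 and 37.3, 64.5 and 39.0 CPM at day 6. At 1.26 µM it had 66.0, 60.3 and 53.0 CPM at day 9 and 58.9, 60.5 and 50.9 CPM at day 6, and at 10 µM it had 25.4, 32.4 and 33.9 CPM at day 9 and 44.0, 42.5 and 49.2 CPM at day 6. Thus the day 9 dishes were above day 6 at 0 and 0.16 µM, overlapped at 1.26 µM and were below at 10 µM. The change at 10 µM was 1.41 below that at 0 µM on the log2 scale (difference −1.41 ± 0.14; adjusted p = 8.71e-09), and the difference at 0.16 µM was 0.32 ± 0.14 (adjusted p = 1).

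KRT18, a keratin of simple epithelia, was 17.2, 19.6 and 17.5 CPM at day 9 and 14.5, 14.8 and 12.7 CPM at day 6 without Pb. At 10 µM it was 3.25, 3.85 and 3.27 CPM at day 9 and 7.72, 10.6 and 9.84 CPM at day 6, and the mean change with Pb was lower by 0.97 (difference −0.97 ± 0.17; adjusted p = 0.0029). Its dishes thus stood in opposite order at the 2 doses. CYP24A1 (difference −0.89 ± 0.16), CRIM1 (−1.07 ± 0.21), ARHGDIB (−0.88 ± 0.18), TPM1 (−0.42 ± 0.089), CCL2 (−0.98 ± 0.21) and IL32 (−0.96 ± 0.21) differed the same way, and for each of these 6 the difference was larger at 10 µM than at 0.16 µM. The heme oxygenase HMOX1, which is induced by heme and oxidants, had 2.07, 1.30 and 0.843 CPM at day 9 and 0.82, 0.635 and 0.802 CPM at day 6 without Pb, and at 0.16 µM it had 8.88, 7.73 and 7.49 CPM at day 9 and 0.785, 1.81 and 0.906 CPM at day 6 (difference at this dose 1.66 ± 0.23). At 10 µM its difference from 0 µM was 0.48 ± 0.23 and did not pass (adjusted p = 0.462). HMOX1, BHLHE41 and KRT18 kept their calls in all 24 fits that left out 1 dish, but under the other alternatives HMOX1 was called in 8 of 11 (adjusted p up to 0.474), BHLHE41 in 9 of 12 (up to 0.501) and KRT18 in 11 of 12 (up to 0.162); the calls of the other 10 were each lost in at least 1, and those of CCL2, GDF15, JUNB and IL32 in 12 or more.

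Counted at each dose on its own, the mesenchymal and matrix list had 8 rises and 2 falls without Pb, 9 rises and 1 fall at 0.16 µM, 0 and 3 at 1.26 µM and 0 and 7 at 10 µM, with medians of 0.16, 0.24, −0.03 and −0.17. Among all genes kept, rises at 0.16, 1.26 and 10 µM made up 2.69%, 4.67% and 5.22%, and falls 2.07%, 3.3% and 3.86% (in all 4.76%, 7.97% and 9.08%). Dish 2 of day 6 at 0.16 µM stood above the other 2 dishes of its group in ANXA2, with 64.5 CPM, and in KRT18, with 18.4 CPM. The p53 list had 4, 4, 14 and 18 rises from 0 to 10 µM and medians of 0.19, 0.20, 0.33 and 0.47. Not every list was ordered by dose. Over the same doses the heat shock list had 7, 8, 10 and 2 rises and the NRF2 list 4, 7, 10 and 4. The endoplasmic reticulum chaperone list had 2, 2, 8 and 0 rises, with 9 falls at 10 µM. Falls in the BMP, ID and TGF-beta list numbered 5, 5, 7 and 10. In the catecholamine list 5, 6, 6 and 6 members fell. A difference between doses was tested per gene, as above, and not for the lists.

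**Figure D5:**
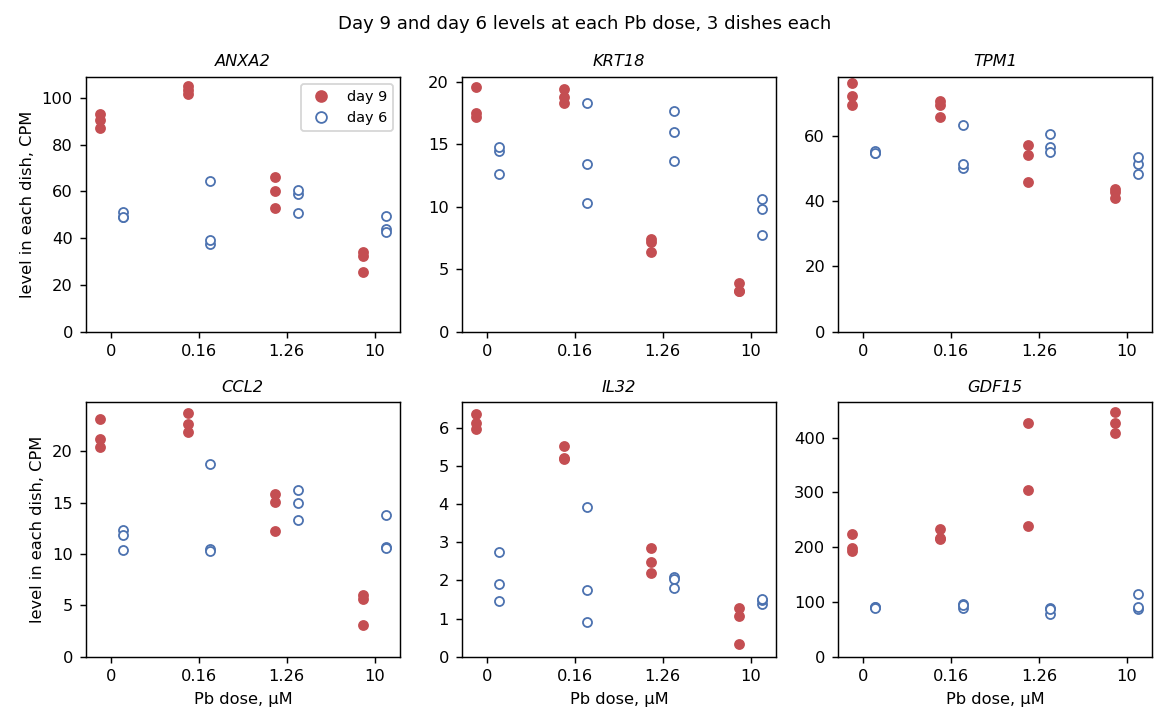
Level in each dish, in CPM, of 6 genes whose change between day 9 and day 6 differed with Pb, at 0, 0.16, 1.26 and 10 µM; filled points are day 9 and open points day 6, 3 dishes each. The day 9 levels of ANXA2, KRT18, TPM1, CCL2 and IL32 lie above those of day 6 at 0 µM and below them at 10 µM, whereas those of GDF15 lie above at all doses and reach 409 to 446 CPM at 10 µM.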

How the data were processed

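The authors deposited 1 table of gene levels in CPM (reads of a gene per 1e+06 reads assigned to genes), for 37334 genes and 60 libraries; the build GRCh38 and the tools STAR, featureCounts, FastQC and MultiQC are those of the submitters' processing notes. Versions, annotation and strand setting are not given in the sources used here. Libraries were made by plate-based tagmentation, per the labels' protocols. Each deposited CPM value was a whole multiple of 1 read within 0.01 read (100% of values, largest deviation 0.000168), so whole reads were recovered for count tests; totals ran from 16.6 to 50.5 M (1e+06), and counting error in reads without molecular identifiers is a lower bound on error.

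Groups follow the labels. A gene was kept if 3 or more libraries held 1 CPM or more of it (15263 genes). log2(CPM + 1) was fitted with limma 3.58.1 in R 4.3.3 over all 60 libraries, with 20 group means, an intensity trend and 40 residual degrees of freedom. Contrasts were two-sided with Benjamini-Hochberg adjustment at 0.05: day 9 minus day 6 at 0 µM, the same over the mean of 3 Pb doses and at each dose, and the difference between the Pb and 0 µM changes. Errors of log2 changes are standard errors; the scale understates changes of low genes. Lists (42, with 821 genes) were counted, not tested. Members and lists were chosen with earlier results of these data known.

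Genes were named by rule: of those past the threshold, with a group mean of 5 CPM or more and no overlap between dishes, the 12 that rose most and the 12 that fell most, up to 5 members of each list by smallest p, the first 3 markers of each marker list, and the 3 smallest p for the difference with Pb. Further list members, those short of the threshold among them, the genes plotted by dose and the 2 motifs were chosen after their values were seen. A few genes that the rule names are not reported here. Of the leading glial, fibroblast and epithelial markers, SOX10, COL1A1, COL1A2, COL3A1, KRT5, KRT14 and KRT6A were not called; no blood marker was kept.

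Promoters and positions are from RefSeq (GRCh38.p14). The model was tested on simulated data. Alternatives were a pseudocount of 0.25, other filters, median-ratio and TMM scaling, fewer samples, a replicate block, GC content and transcript length correction (splines of 4 degrees of freedom), edgeR 4.0.16 (quasi-likelihood, recovered reads; 698 genes called), DESeq2 1.42.0 and leaving out each dish.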

Additional observations from a re-analysis of the deposited data

Results flagged for a closer look

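For 13 genes the change between day 9 and day 6 differed between dishes with Pb and dishes without it, by the test of the difference itself (mean of 3 doses minus 0 µM, limma, adjusted p under 0.05). The change was higher with Pb for HMOX1, by 1.17 on the log2 scale, and for GDF15, by 0.56. For the other 11 the difference, Pb minus 0 µM, was −0.91 in BHLHE41, −0.97 in KRT18, −0.89 in CYP24A1, −0.62 in ANXA2, −0.58 in SYT7, −1.07 in CRIM1, −0.88 in ARHGDIB, −0.42 in TPM1, −0.98 in CCL2, −0.29 in JUNB and −0.96 in IL32.

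BHLHE41, a circadian repressor, is a gene of low level that rose without Pb and was not called over the Pb doses: it had 1.08 to 1.52 CPM at day 9 and 0.501, 0.0605 and 0.328 CPM at day 6 without Pb, and 0.115, 0.232 and 0.0667 CPM at day 9 and 0.096, 0.294 and 0.303 CPM at day 6 with 10 µM. The day 9 dishes were above day 6 without Pb, and the dishes overlapped at 10 µM. SYT7, a calcium sensor of vesicle release, fell in both settings: at 10 µM it had 31.6, 31.3 and 30.8 CPM at day 9 and 77.8, 90.4 and 68.4 CPM at day 6, and without Pb it had 58.1, 61.5 and 63.9 CPM at day 9 and 87.5, 83.9 and 74.8 CPM at day 6. SYT7 was not called without replicate 3 of day 6 or replicate 3 of day 9 at 0 µM, CYP24A1 not without replicate 3 of day 6, and ANXA2 not without replicate 3 of day 9.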

How the results depend on the processing

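The count of 785 genes without Pb was 422 in a fit of the 15 libraries at 0 µM alone, an alternative chosen after seeing the data, and ran from 475 to 749 when 1 dish was left out. Under the other alternatives it stayed between 654 (only the groups compared) and 942 (DESeq2), with 693 under TMM scaling, 698 with edgeR and 832 after GC and length correction. The count of 2947 genes over the Pb doses stayed within 1.5 times under every alternative run. The 13 genes whose change differed with Pb were the least stable: 5 with edgeR, 5 with DESeq2, 8 without day 18 and 0 with only the groups compared (limma, 859 at an unadjusted p under 0.05), and 5 to 16 when 1 dish was left out. With 10 µM alone in place of the mean of doses 63 genes passed, and with 0.16 µM alone 1; these were also chosen after seeing the data. The cause was not tested.

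Of 134 calls of named genes and list members, none reversed under any alternative run; 13 were lost with edgeR, 27 with only the groups compared, 40 with only the libraries at 0 µM, and 15 to 27 when 1 dish was left out. Replicate numbers are shared between the groups, but same-numbered dishes deviated together with correlations of only 0.226, 0.0116 and −0.0934, so they were not taken as pairs. Among dishes of unlike number, day 9 dish 2 with day 6 dish 3 reached 0.196 and day 9 dish 3 with day 6 dish 2 reached 0.194. The other correlations between unlike numbers were below 0. With the replicate block 780 genes passed, 840 with the block and GC and length correction, and 839 with the block and only the groups compared; over the Pb doses the block gave 2998 and for the difference with Pb 12. Depth limits low genes: 3 reads were up to 0.181 CPM in these libraries.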
